A study of Homo sapiens with 4 samples.

Results

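Semaphorins, plexins, neuropilins, ephrins and Eph receptors are the members of 2 families of contact and guidance signals, and their messages were compared between MET+ and MET-KO LoVo cells. LoVo is an established human colon adenocarcinoma line that carries a constitutively active MET receptor. The members were the protein-coding genes of GENCODE version 29 whose symbols begin with SEMA, PLXN, EPHA, EPHB, EFNA or EFNB, together with NRP1 and NRP2. They came to 53 of the 58825 gene rows, with 20 semaphorins, 9 plexins, 2 neuropilins, 14 Eph receptors and 8 ephrins. The rule goes by gene symbol and takes in no measured value, but it was set with earlier results of these data known.

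MET+ cells carried a wild-type MET genotype and were the GFP control of the editing experiment, and MET-KO cells were the MET knock out made with CRISPR/Cas9. Both were LoVo cells grown in DMEM with fetal bovine serum, and each group had 2 biological replicates. MET-KO cells were grown from single picked clones chosen by the loss of MET protein. Whether the 2 MET-KO libraries came from 1 clone or from several is not given in the sources used here, so the effect of the knock-out and the character of a clone cannot be told apart. Each library was made with a 3' tag kit, in which reads start near the end of a transcript, so counts were not divided by transcript length.

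The libraries held between 8429142 and 10286552 counts. Levels are given as CPM, counts scaled to a common library total with TMM factors, and a floor of 3 counts corresponded to 0.292 to 0.356 CPM, which covers counting error only. MET itself had 2794 and 3272 counts in MET+ and 861 and 965 in MET-KO cells (log2 fold change -1.96, standard error 0.09, edgeR adjusted p = 1.49e-18), a reading at the transcript's end that does not look at the edited site. The colon epithelial keratin genes KRT8, KRT18 and KRT19 were abundant in every library. Of the 12 colon epithelial markers 11 were tested and 10 differed, 8 lower and 2 higher in MET-KO cells, against 54.1% of all tested genes. The 2 higher were KRT20, from 0 and 0 counts in MET+ to 27 and 28 in MET-KO cells, and CDX2, from 525 and 648 to 1477 and 1338. CDH17, an intestinal cadherin, went from 212 and 229 counts to 0 and 0, and CEACAM5, a surface protein of colon epithelium, from 392 and 487 counts to 0 and 0. VIL1 and LGALS4 had at most 3 counts in any MET-KO library. KRT20 had enough counts for the test only through MET-KO cells, and CDH17, CEACAM5, VIL1 and LGALS4 only through MET+ cells. The share of markers that differed therefore depends in part on the filter on counts. Of the neural markers, SNAP25 went from 0 and 0 counts to 93 and 91 and SYP from 19 and 20 to 341 and 414, while RBFOX3, GFAP and SOX10 stood at 0 in all 4 libraries. The summed neural markers ranged from 2.05 to 2.30 CPM in MET+ and from 42.9 to 46.5 CPM in MET-KO cells, fibroblast markers reached at most 4.33 CPM, endothelial markers 0.924 CPM and haematopoietic markers 9.96 CPM. The chromosomes differed too: the median log2 fold change of tested genes was 0.50 on chromosome 7 and -0.43 on chromosome 5, and 12 genes of chromosome Y had at least 10 counts in each MET-KO library and 0 in each MET+ library. Whether both groups descend from 1 LoVo culture was not tested, and a difference between cultures cannot be told apart from the knock-out in any value given here.

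Semaphorins are secreted or membrane-bound ligands that share the sema domain with the plexins, their receptors, and with MET and the related kinase MST1R. Plexins act through a GTPase-activating domain inside the cell and through guanine nucleotide exchange factors, and class 3 semaphorins mostly need a neuropilin as co-receptor. B plexins are known to associate with MET and MST1R at the membrane. Ephrins are bound to the surface by a lipid anchor (A class) or a transmembrane stretch (B class) and meet Eph receptor tyrosine kinases on the next cell, so both cells receive a signal. In the intestinal crypt, EPHB2 and EPHB3 are known targets of TCF transcription factors and position cells against B ephrins on the villus side.

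In MET-KO cells 14 members rose and 16 fell, so 30 of the 40 members tested passed the threshold. The test was edgeR's quasi-likelihood test on all 13801 genes with enough counts, adjusted by Benjamini-Hochberg, at a threshold of 0.05. Across all tested genes 54.1% passed it, 27.2% higher and 26.9% lower, and the members are read against that share. The called members EFNA5, SEMA6A, EFNB3 and EPHA4 could pass the filter on counts only through the group where they were high. The member counts therefore depend in part on that filter. With at least 10 counts in every library 34 members were tested, 12 higher and 14 lower, against 6219 of 11844 genes called. With a fold change of at least 2 (log2 of at least 1) as an added demand, 8 members were higher and 9 lower, against 14.5% and 9.81% of all tested genes and 24.3% in either direction. The libraries of the groups did not overlap in 33 of the 40 members, against 75.6% of all tested genes. The median log2 fold change was -0.22 over the members and 0.0073 over all tested genes. Since the cells were analysed in bulk, fewer cells that carry a message and less message per cell cannot be told apart.

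The families moved differently inside. The summed level of the semaphorins was 293.9 and 299.6 CPM in MET+ and 189.8 and 187 CPM in MET-KO libraries, and that of the plexins 129 and 134 against 207 and 208 CPM. Eph receptors summed to 351 and 369 CPM in MET+ and 316 and 266 CPM in MET-KO cells. Ephrins summed to 176.5 and 175.8 CPM against 98.4 and 97.6 CPM, and nearly all of that difference lay in the B ephrins, with 92.7 and 96.5 CPM against 23.3 and 22.1 CPM. A ephrins summed to 75.1 and 75.5 CPM in MET-KO cells, close to the 79.3 CPM of the lower MET+ library. These sums are descriptions without a test, and every pair of groups named here stood apart.

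**Figure D1:**
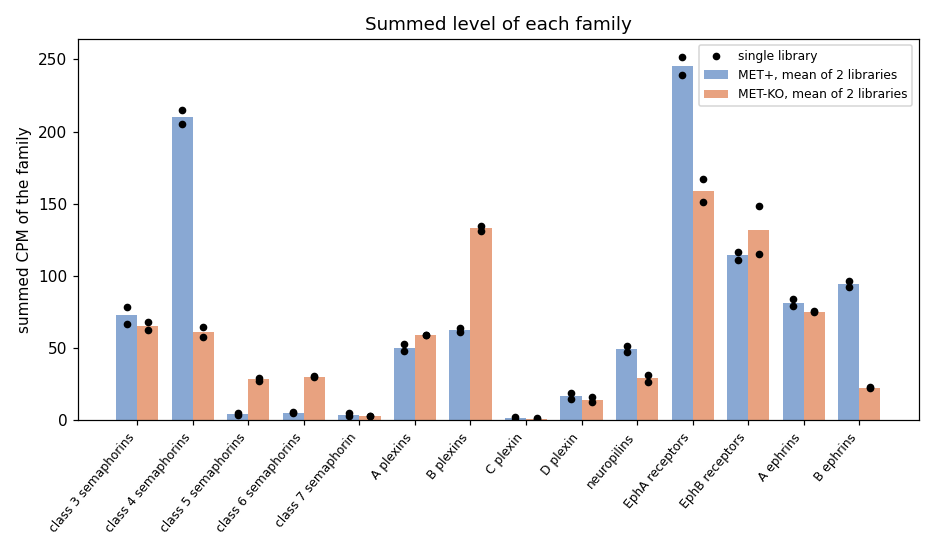
Summed CPM of each class of semaphorins, plexins, neuropilins, Eph receptors and ephrins on a linear axis that starts at 0, with bars for the mean of 2 libraries in MET+ (blue) and MET-KO (orange) cells and black points for single libraries. Class 4 semaphorins and B ephrins stand lower in MET-KO cells (3.43-fold and 4.16-fold), and class 5 semaphorins, class 6 semaphorins and B plexins stand higher (6.51-fold, 5.75-fold and 2.12-fold).

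The semaphorins exchanged their leading member. SEMA4B, a transmembrane class 4 semaphorin (chromosome 15, 90160604 to 90229679, plus strand, GRCh38), was the highest semaphorin of MET+ cells with 169 and 159.6 CPM and stood at 14.6 and 14.4 CPM in MET-KO cells. The MET-KO libraries were almost equal and far below both MET+ libraries. This was an 11.3-fold fall (log2 fold change -3.50, standard error 0.12, edgeR adjusted p = 3.65e-23). SEMA4B made up 57.6% and 53.3% of the summed semaphorin level in MET+ cells and 7.70% and 7.67% in MET-KO cells. The tested genes within 1 Mb of SEMA4B were also lower, 23 of 30 past the threshold and none higher, with a median log2 fold change of -0.81, and SEMA4B lay -2.69 below that median.

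The promoters of 4 semaphorins and ephrins with large changes are printed. SEMA4B and EFNB2 fell, and SEMA5A and EFNA5 rose on a chromosome whose genes were mostly lower. SEMA3A and SEMA6A were to be printed as well, but no promoter entry was found for them. The choice was made after the values were seen. The printed windows are RefSeq promoters of GRCh38.p14, each 250 bases before to 50 bases after the start, 5′ to 3′ on the strand of the gene. Capitals mark the GC box, GGGCGG or its reverse complement CCGCCC, the site that SP1-like factors bind. The windows are chr15:90201080-90201379 on the plus strand for SEMA4B, and chr13:106535613-106535912 for EFNB2, chr5:9546026-9546325 for SEMA5A and chr5:107670888-107671187 for EFNA5 on the minus strand. The RefSeq start of SEMA4B lies 40726 bases inside the GENCODE gene.
SEMA4B: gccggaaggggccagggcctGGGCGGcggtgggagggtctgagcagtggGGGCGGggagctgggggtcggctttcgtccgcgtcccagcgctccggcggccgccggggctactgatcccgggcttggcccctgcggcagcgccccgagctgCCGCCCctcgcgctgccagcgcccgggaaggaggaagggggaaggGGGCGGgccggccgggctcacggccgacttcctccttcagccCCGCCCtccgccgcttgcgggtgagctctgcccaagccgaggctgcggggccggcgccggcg
EFNB2: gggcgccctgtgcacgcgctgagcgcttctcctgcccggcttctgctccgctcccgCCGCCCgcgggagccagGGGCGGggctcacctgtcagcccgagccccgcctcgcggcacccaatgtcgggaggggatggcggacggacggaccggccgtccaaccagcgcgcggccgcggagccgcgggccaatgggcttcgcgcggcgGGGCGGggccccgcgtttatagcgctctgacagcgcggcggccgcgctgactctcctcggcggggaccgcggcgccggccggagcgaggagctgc
SEMA5A: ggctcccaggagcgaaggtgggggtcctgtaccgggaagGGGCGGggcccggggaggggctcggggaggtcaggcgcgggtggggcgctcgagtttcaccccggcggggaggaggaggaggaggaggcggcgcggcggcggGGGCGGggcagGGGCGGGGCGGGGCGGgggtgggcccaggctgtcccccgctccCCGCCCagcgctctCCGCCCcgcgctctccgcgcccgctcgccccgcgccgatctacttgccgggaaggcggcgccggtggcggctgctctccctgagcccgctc
EFNA5: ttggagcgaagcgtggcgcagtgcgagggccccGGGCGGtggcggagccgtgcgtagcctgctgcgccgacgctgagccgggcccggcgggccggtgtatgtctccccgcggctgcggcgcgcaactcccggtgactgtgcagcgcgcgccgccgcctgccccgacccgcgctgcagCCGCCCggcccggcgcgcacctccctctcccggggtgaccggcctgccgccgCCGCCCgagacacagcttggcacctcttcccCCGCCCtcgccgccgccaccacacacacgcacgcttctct

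The 4 windows were rich in G and C, with 79.3% in SEMA4B, 78.7% in EFNB2, 81% in SEMA5A and 78% in EFNA5, and none of them held the TEAD, AP-1 or TCF letters described next. An entry was found for 47 of the 53 members among 27305 promoters. A GC box on either strand stood in 38 of the 47 (80.9%), in 44.6% of all promoters and in 71.5% of the promoters of tested genes. Members that rose and members that fell were alike in these counts, with a GC box in 11 of 12 and 12 of 13, and their median G and C content was 69.2% and 69.3%. The TEAD letters GGAATG stood in 3 member promoters against 10.8% of the promoters of tested genes, the AP-1 letters TGANTCA in 1 against 4.52%, and the TCF letters CTTTGA in 3 against 8.60%. Some RefSeq starts lie far inside the GENCODE gene, by 113896 bases in PLXNC1, which holds the 1 AP-1 match, and by 197459 bases in EPHB1. The matches describe letters in a short window on both strands and were tested for nothing.

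Among class 3 semaphorins, the secreted ligands of neuropilin and plexin complexes, all 5 tested members passed the threshold, against 54.1% of all tested genes. Of these, 2 were higher and 3 lower. SEMA3A, the repellent ligand of NRP1 (chromosome 7, 83955777 to 84492724, minus strand), had 34.4 and 42.3 CPM in MET+ and 4.90 and 6.35 CPM in MET-KO cells. It fell 6.8-fold (log2 fold change -2.77, standard error 0.18, edgeR adjusted p = 5.91e-15), and the groups were far apart. SEMA3B, a ligand known as a candidate tumour suppressor of chromosome 3 (50267558 to 50277546, plus strand), went the other way. Its level was 9.67 and 10.4 CPM in MET+ and 36.4 and 43.4 CPM in MET-KO cells (log2 fold change 1.99, standard error 0.16, edgeR adjusted p = 9.54e-13). The class 3 sum was therefore similar, 72.9 ± 8.24 CPM for MET+ against 65.4 ± 3.95 CPM for MET-KO (mean and SD of 2 libraries), while its makeup was exchanged. SEMA3A was 51.4% and 53.7% of the class in MET+ cells and 7.82% and 9.31% in MET-KO cells, and SEMA3B was 14.4% and 13.2% against 58.1% and 63.6%.

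Smaller changes were seen in the other secreted members. SEMA3F, a ligand of NRP2, had 6.89 and 9.65 CPM in MET+ and 5.00 and 3.31 CPM in MET-KO cells (log2 fold change -1.0, standard error 0.28, edgeR adjusted p = 0.00332). SEMA3F and SEMA3B are neighbours 78.5 kb apart on chromosome 3, and they moved in opposite directions. SEMA3C, which signals through both neuropilins, fell by 0.99 on the log2 scale (edgeR adjusted p = 0.00136), and SEMA3G, a ligand of NRP2, rose by 0.76 (edgeR adjusted p = 0.00634). Without MET-KO replicate 2 the edgeR test no longer called SEMA3C (adjusted p = 0.056), SEMA3F (0.0763) or SEMA3G (0.06), and SEMA3F was also not called without MET+ replicate 2 (0.0583). SEMA3E was counted 0 and 0 times in MET+ and 2 and 5 times in MET-KO cells, too few to test, and SEMA3D was at 0 in all 4 libraries.

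Of the other class 4 semaphorins, transmembrane ligands that include the classical partners of B plexins, SEMA4F rose and SEMA4G fell. SEMA4F had 3.50 and 4.62 CPM in MET+ and 11.9 and 9.12 CPM in MET-KO cells (log2 fold change 1.35, standard error 0.26, edgeR adjusted p = 4.96e-05). SEMA4G changed by a log2 fold change of -0.90 (edgeR adjusted p = 0.00176, and 0.0513 without MET-KO replicate 2), and a gene on the opposite strand covers part of its last exonic bases. The PLXNB1 ligand SEMA4D did not pass the test, with 18.6 and 14.9 CPM in MET+ and 16.2 and 18.0 CPM in MET-KO cells (log2 fold change 0.03, standard error 0.17, edgeR adjusted p = 0.886), and its libraries overlapped. SEMA4C, a ligand of PLXNB2, likewise had overlapping libraries of 13.3 and 14 against 14.8 and 11.6 CPM (log2 fold change -0.05, standard error 0.19, edgeR adjusted p = 0.849). SEMA4A was counted 2 times in 1 MET+ library and not in the others.

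The transmembrane semaphorins of classes 5 and 6 were higher in MET-KO cells wherever they could be tested. SEMA5A, a class 5 semaphorin with thrombospondin repeats (chromosome 5, 9035026 to 9546075, minus strand), had 3.50 and 4.72 CPM in MET+ and 28.3 and 27.1 CPM in MET-KO cells. It rose 6.66-fold (log2 fold change 2.73, standard error 0.20, edgeR adjusted p = 1.57e-13). SEMA6A, a ligand of PLXNA2 and PLXNA4 (chromosome 5, 116443616 to 116574934, minus strand), was counted 1 and 14 times in MET+ and 119 and 130 times in MET-KO cells, so the MET+ libraries were uneven and both far below. Its log2 fold change was 3.82 (standard error 0.40, edgeR adjusted p = 4.48e-10), and it was 3.03 without MET+ replicate 1 and 6.46 without MET+ replicate 2. SEMA6B, another class 6 ligand (chromosome 19, 4542593 to 4559808, minus strand), had 2.90 and 2.57 CPM against 14.5 and 15 CPM (log2 fold change 2.43, standard error 0.25, edgeR adjusted p = 5.31e-10). SEMA6C, at 1.93 and 1.54 against 3.82 and 3.41 CPM, passed by little (log2 fold change 1.06, standard error 0.41, edgeR adjusted p = 0.0276) and did not pass without MET+ replicate 2 (0.123), MET-KO replicate 1 (0.195) or MET-KO replicate 2 (0.108).

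SEMA5B was counted 2 and 3 times in MET+ and 13 and 5 times in MET-KO cells, too low for the test, a ratio of 3.08 with an exact counting interval of 1.1 to 10.6. The class 7 member SEMA7A, a lipid-anchored semaphorin that uses PLXNC1 and integrins, had 3.02 and 4.72 CPM in MET+ and 2.94 and 3.04 CPM in MET-KO cells (log2 fold change -0.38, standard error 0.36, edgeR adjusted p = 0.376), with overlapping libraries. SEMA6D was at 0 in all 4 libraries. As a share of all semaphorin CPM, SEMA5A went from 1.19% and 1.58% to 14.9% and 14.5%, SEMA6A from at most 0.48% to 6.15% and 6.39%, and SEMA6B from 0.987% and 0.856% to 7.64% and 8.02%. MET+ cells thus had 1 semaphorin above all others, and MET-KO cells had several at similar levels, headed by SEMA3B at 19.2% and 23.2%.

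**Figure D2:**
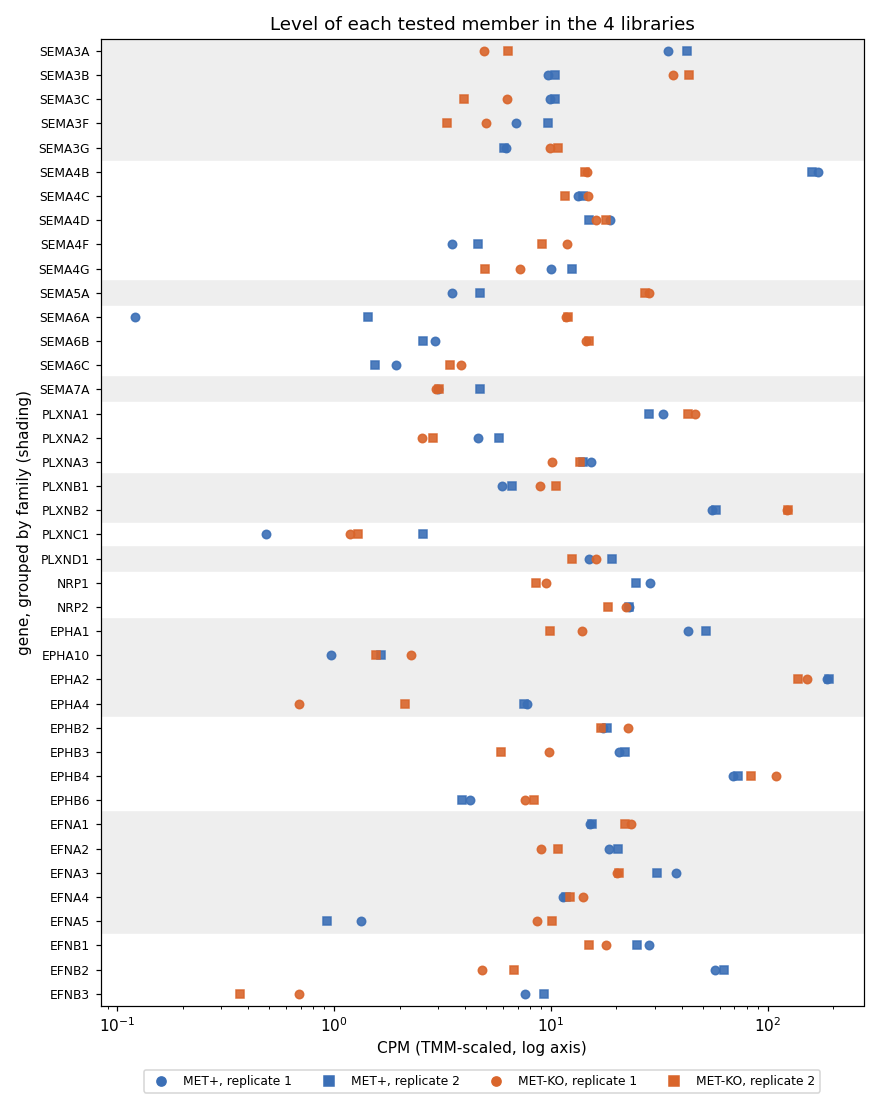
CPM of the 40 tested members on a log axis, 1 row per gene and grey and white bands for the classes, with circles for replicate 1 and squares for replicate 2 in MET+ (blue) and MET-KO (orange) cells. SEMA4B, EFNB2, SEMA3A and EFNB3 show blue points far to the right of the orange ones, SEMA6A, EFNA5 and SEMA5A the reverse, and the 2 libraries of a group mostly lie close together, with SEMA6A and PLXNC1 in MET+ cells as the exceptions.

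Among the semaphorin receptors 1 plexin and 1 neuropilin changed by a log2 fold change of at least 1 in size, PLXNB2 higher and NRP1 lower. PLXNB2, the receptor of SEMA4C and other class 4 semaphorins (chromosome 22, 50274979 to 50307627, minus strand), was the highest plexin with 55.1 and 57.7 CPM in MET+ and 122 and 124 CPM in MET-KO cells. It rose 2.18-fold (log2 fold change 1.13, standard error 0.10, edgeR adjusted p = 1.82e-11), and replicates differed little. PLXNB2 was 42.7% and 43.1% of the summed plexin level in MET+ cells and 58.9% and 59.8% in MET-KO cells. PLXNB1, the receptor of SEMA4D, also rose (log2 fold change 0.63, edgeR adjusted p = 0.0239) but not without MET+ replicate 1 (0.0665) or MET-KO replicate 2 (0.195). The summed B plexin level was 131 and 135 CPM in MET-KO cells against 61.0 and 64.3 CPM in MET+ cells, all 3 members included, with PLXNB3 at 0.

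A plexins, which pair with neuropilins for class 3 ligands, were divided. PLXNA1, the highest of them, had 32.7 and 28.3 CPM in MET+ and 46.2 and 43 CPM in MET-KO cells (log2 fold change 0.55, standard error 0.13, edgeR adjusted p = 0.000372), with no overlap. PLXNA2, a receptor of SEMA6A as well as of class 3 ligands, fell (log2 fold change -0.94, edgeR adjusted p = 0.0181), a call lost without MET+ replicate 2 (0.118), MET-KO replicate 1 (0.118) or MET-KO replicate 2 (0.0678). PLXNA3, a partner of NRP2, was not past the threshold (log2 fold change -0.31, edgeR adjusted p = 0.18), and LAGE3 on the opposite strand covers part of its end. PLXNA4 was at 0 in all 4 libraries.

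The single C and D plexins did not pass the test. PLXND1, the receptor of SEMA3E, had 15 and 19 CPM in MET+ and 16.2 and 12.5 CPM in MET-KO cells (log2 fold change -0.25, standard error 0.18, edgeR adjusted p = 0.255). PLXNC1, the receptor of SEMA7A, was counted 4 and 25 times in MET+ and 12 and 14 times in MET-KO cells, so its value rested on a MET+ pair that differed more than the groups did (log2 fold change -0.35, standard error 0.56, edgeR adjusted p = 0.621). Without MET+ replicate 2 the sign was the other way, at 1.32.

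The neuropilins separated as well. NRP1, co-receptor of SEMA3A and of VEGFA (chromosome 10, 33177492 to 33336262, minus strand), had 28.5 and 24.6 CPM in MET+ and 9.51 and 8.47 CPM in MET-KO cells. It fell 2.95-fold (log2 fold change -1.56, standard error 0.18, edgeR adjusted p = 2.88e-09). NRP2, co-receptor of SEMA3F, had 23.0 and 22.9 CPM against 22.2 and 18.3 CPM and did not pass (log2 fold change -0.18, standard error 0.15, edgeR adjusted p = 0.336). NRP1 was the larger part of the neuropilin sum in MET+ cells (55.4% and 51.8%) and the smaller part in MET-KO cells (30.0% and 31.6%). The ligand SEMA3A and its co-receptor NRP1 were thus both lower in MET-KO cells, and the difference between the changes of NRP1 and NRP2 was not tested.

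VEGFA, the other main ligand of NRP1, had 80.7 and 74.8 CPM in MET+ and 21.9 and 23.7 CPM in MET-KO cells (log2 fold change -1.77, standard error 0.12, edgeR adjusted p = 1.14e-14). Of the 8 VEGF ligands and receptors 4 could be tested, and 2 fell, against 26.9% of all tested genes. These were VEGFA and its receptor FLT1 (log2 fold change -1.27, edgeR adjusted p = 1.94e-07). PGF, a further FLT1 ligand, was called higher (log2 fold change 0.82, edgeR adjusted p = 0.0396), a call that did not hold with DESeq2 or in 3 of the 4 fits without a library. The endothelial receptors KDR and FLT4 were at 0 in all 4 libraries.

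Among the Eph receptors the EphA members that passed the test were all lower. EPHA2, known from epithelial and tumour cells and the highest of all members in both groups, had 188 and 191 CPM in MET+ and 151 and 138 CPM in MET-KO cells (log2 fold change -0.40, standard error 0.09, edgeR adjusted p = 0.00053). The fall was small and the groups did not overlap. EPHA1, the founding member of the receptor family (chromosome 7, 143390289 to 143408892, minus strand), had 42.7 and 51.6 CPM against 13.8 and 9.85 CPM. Its log2 fold change was -2.0 (standard error 0.16, edgeR adjusted p = 6.51e-13), and an exon of ZYX on the opposite strand lies in its last 500 exonic bases, so reads of both genes could be mixed if strand was not used in counting. EPHA4, a receptor that binds ephrins of both classes (chromosome 2, 221418027 to 221574202, minus strand), had 7.73 and 7.49 CPM in MET+ and 0.686 and 2.12 CPM in MET-KO cells (log2 fold change -2.41, standard error 0.38, edgeR adjusted p = 1.65e-06). The MET-KO libraries of EPHA4 were uneven, and without MET-KO replicate 2 the value was -3.44.

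EPHA10, a receptor without kinase activity, stayed under 2.26 CPM everywhere and did not pass the test (log2 fold change 0.52, edgeR adjusted p = 0.386). EPHA3, EPHA5, EPHA6 and EPHA7, receptors known best from the nervous system, were at 0 in all 4 libraries, and EPHA8 was counted 1 time in 1 MET+ library. These neural receptors had no counts in the MET-KO libraries in which the neural markers SNAP25 and SYP were counted, and any relation between them was not tested. EPHA2 was 78.6% and 75.8% of the EphA level in MET+ and 90.0% and 91.0% in MET-KO cells.

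EphB receptors went in both directions. EPHB4, the highest of them and known as the receptor of EFNB2 on veins, had 69.2 and 72.9 CPM in MET+ and 108.5 and 83.9 CPM in MET-KO cells (log2 fold change 0.44, standard error 0.11, edgeR adjusted p = 0.00124). This call did not hold without MET-KO replicate 1 (log2 fold change 0.24, adjusted p = 0.122). Its neighbours on chromosome 7 were higher as well, 34 of 46 within 1 Mb past the threshold and 1 lower, with a median of 0.76, and relative to the median of its chromosome the value of EPHB4 was -0.068 (adjusted p = 0.642). EPHB6, a receptor that lacks kinase activity, also lies on chromosome 7 and rose by 0.97 (edgeR adjusted p = 0.00324), or by 0.47 relative to the chromosome (adjusted p = 0.156).

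The crypt receptors EPHB2 and EPHB3 did not go together. EPHB3 had 20.7 and 22.0 CPM in MET+ and 9.80 and 5.89 CPM in MET-KO cells (log2 fold change -1.45, standard error 0.20, edgeR adjusted p = 2.54e-07). EPHB2 had 17.3 and 18.2 CPM against 22.6 and 17.0 CPM, overlapped and did not pass the test (log2 fold change 0.16, standard error 0.17, edgeR adjusted p = 0.456). EPHB1 was at 0 in all 4 libraries. As shares of the EphB level, EPHB3 went from 18.5% and 18.8% to 6.61% and 5.12%, EPHB2 stood at 15.5% and 15.5% and then 15.2% and 14.8%, and EPHB4 went from 62.1% and 62.3% to 73.1% and 72.8%.

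**Figure D3:**
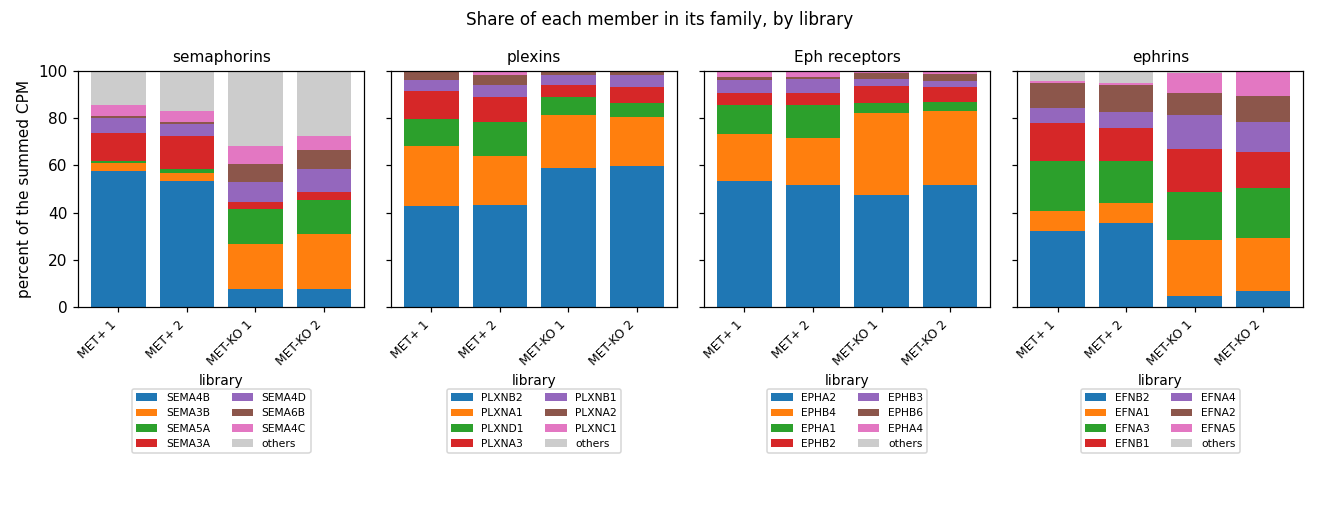
Percent of the summed CPM of semaphorins, plexins, Eph receptors and ephrins taken by each member in the 4 libraries, as stacked bars from 0 to 100, with the 7 members of the largest share drawn in colour and the rest in grey. SEMA4B falls from 57.6% and 53.3% to 7.70% and 7.67% of the semaphorins and EFNB2 from 32.2% and 35.5% to 4.88% and 6.89% of the ephrins, PLXNB2 takes the larger part of the plexins in MET-KO cells, and EPHA2 keeps about the same part of the Eph receptors.

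The B ephrins, transmembrane ligands of EphB receptors and of EPHA4, were all lower in MET-KO cells. EFNB2 (chromosome 13, 106489731 to 106535662, minus strand), the highest ephrin of MET+ cells, had 56.9 and 62.4 CPM there and 4.8 and 6.72 CPM in MET-KO cells. This was a 10.3-fold fall (log2 fold change -3.36, standard error 0.16, edgeR adjusted p = 1.15e-18). EFNB3 (chromosome 17, 7705202 to 7711378, plus strand), a ligand known for midline guidance of axons, was counted 63 and 90 times in MET+ and 7 and 4 times in MET-KO cells. It fell 15.8-fold (log2 fold change -3.98, standard error 0.42, edgeR adjusted p = 7.09e-10), the steepest fall of any member, from a level well under that of EFNB2. The third B ephrin, EFNB1, encoded on chromosome X, fell less, with a log2 fold change of -0.69 (edgeR adjusted p = 0.000383). EFNB1 therefore made up 30.4% and 25.7% of the B ephrin level in MET+ cells and 76.5% and 67.9% in MET-KO cells.

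A ephrins, which are held by a lipid anchor and bind EphA receptors, were split. EFNA5 (chromosome 5, 107376889 to 107670895, minus strand), a ligand that also binds EPHB2, was counted 11 and 9 times in MET+ and 88 and 110 times in MET-KO cells. It rose 8.35-fold (log2 fold change 3.06, standard error 0.35, edgeR adjusted p = 4.81e-09), and the groups stood far apart. EFNA3, the highest A ephrin of MET+ cells, had 37.6 and 30.8 CPM in MET+ and 20.2 and 20.5 CPM in MET-KO cells (log2 fold change -0.74, standard error 0.14, edgeR adjusted p = 4.57e-05). EFNA2 fell by 0.97 on the log2 scale (edgeR adjusted p = 3.38e-05), and EFNA1, a ligand of EPHA2, rose by 0.56 (edgeR adjusted p = 0.00405, and 0.0606 with DESeq2). EFNA4 did not pass the test (log2 fold change 0.19, edgeR adjusted p = 0.436).

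EFNA4, EFNA3 and EFNA1 form a cluster on chromosome 1, with gaps of 9.32 kb and 39.9 kb between them, and the middle gene fell while EFNA1 rose. An annotated gene on the same strand overlaps EFNA3 and EFNA4 outside their last 500 exonic bases. Each of the 8 ephrins had groups whose libraries did not overlap, against 75.6% of all tested genes. Of the 8, 7 passed the test, 2 higher and 5 lower, against 54.1% of all tested genes. EFNA5 had a MET+ library with fewer than 10 counts, and EFNB3 had fewer than 10 in each MET-KO library. Each could pass the count filter only through the group where it was high, so these shares depend in part on the filter.

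**Figure D4:**
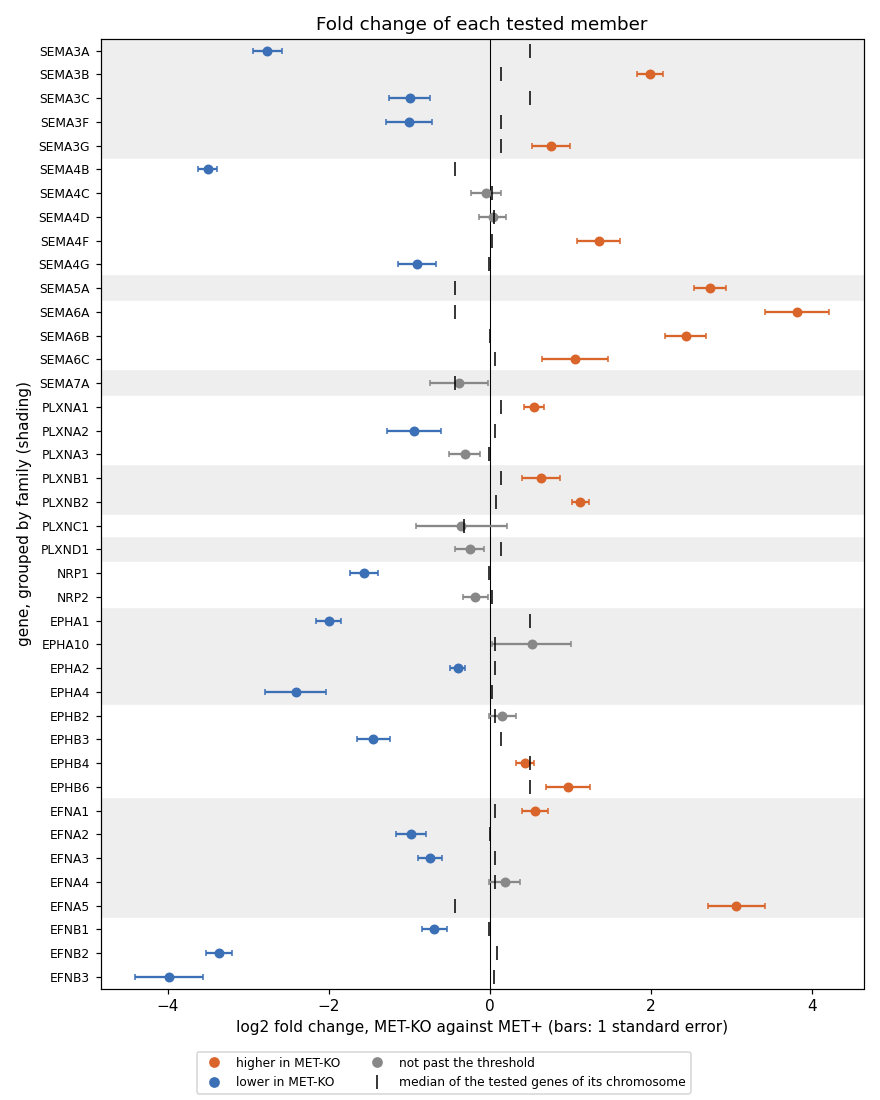
Log2 fold change of MET-KO against MET+ cells for the 40 tested members, with bars of 1 standard error, orange points for members that rose, blue for members that fell and grey for those not past the threshold, and a black tick for the median of the tested genes of the member's chromosome. Values run from -3.98 in EFNB3 to 3.82 in SEMA6A, class 5 and 6 semaphorins and B plexins lie to the right of 0, B ephrins and EphA receptors past the threshold lie to the left, and EPHB4 lies on its chromosome's tick.

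Position on the chromosome moved with a few of these values. Of the 5 tested members on chromosome 7, SEMA3A, SEMA3C and EPHA1 fell although the median gene of that chromosome was 0.50 higher, and EPHB4 and EPHB6 rose. Unlike the neighbours of EPHB4, the 11 tested genes within 1 Mb of EPHB6 had a median of 0.05, with 3 higher and 4 lower, and EPHB6 lay 0.92 above it. The 3 members on chromosome 5, EFNA5, SEMA5A and SEMA6A, all rose although the median of that chromosome was -0.43. With values centred on the chromosome 3 of the 30 calls were lost, those of EPHB4, EPHB6 and PLXNB1 (log2 fold change 0.49, adjusted p = 0.0836). For 31 members with at least 5 tested genes within 1 Mb, the neighbours' median was mostly near 0, with SEMA4B, EPHB4, SEMA7A (-0.48) and SEMA4D (1.6) as those beyond 0.4 in size.

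**Figure D5:**
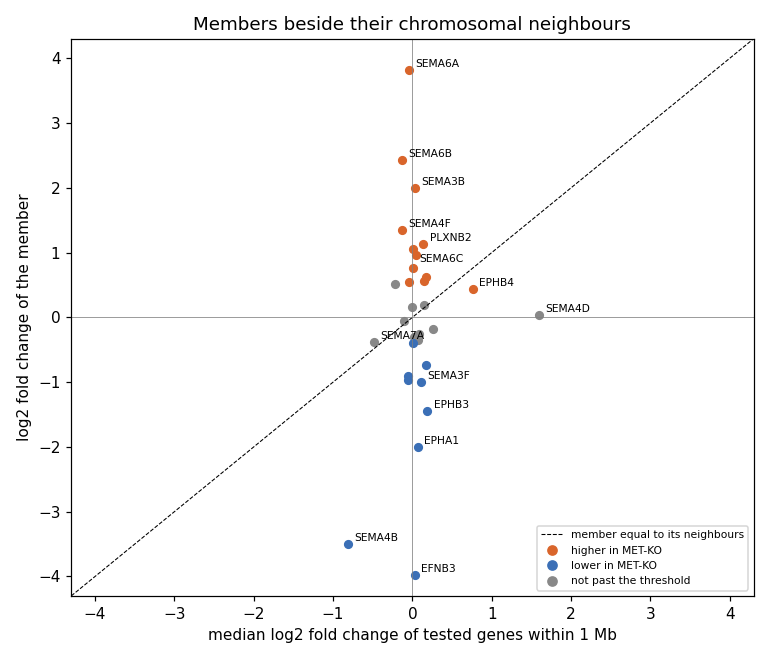
Log2 fold change of 31 members against the median log2 fold change of the tested genes within 1 Mb of each, in orange for members that rose, blue for members that fell and grey for those not past the threshold, with a dashed line where a member would equal its neighbours. Most members lie near a neighbour median of 0 whatever their own value, SEMA4B lies at -0.81 and below the line, and EPHB4 lies at 0.76 and also below the line.

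MET and MST1R are the kinases that carry a sema domain. MST1R, the receptor of macrophage stimulating protein, had 67 and 64 counts in MET+ and 47 and 56 in MET-KO cells and did not pass the test (log2 fold change -0.58, standard error 0.27, edgeR adjusted p = 0.0713). Relative to its chromosome, or without MET+ replicate 2, it was called lower.

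Class 3 semaphorins, plexins and MET are cut by furin-type proteases, and Eph receptors and ephrins are shed by ADAM10 and cut by gamma-secretase. LoVo cells are known to lack active furin. Of 11 such proteases and subunits, all tested, 4 rose and 2 fell, with a median log2 fold change of -0.005. The share called was 54.5%, close to the 54.1% of all tested genes. ADAM10 rose from 59.0 and 60.7 CPM to 153.5 and 157 CPM (log2 fold change 1.37, edgeR adjusted p = 7.5e-14), and PCSK5, a furin-like convertase, rose by 1.73 (edgeR adjusted p = 3.06e-05). Within gamma-secretase, PSEN2 rose by 0.82 (edgeR adjusted p = 0.000167), and APH1A fell by 0.46 on the log2 scale (edgeR adjusted p = 0.000126). The message of FURIN was not past the threshold, at 34.3 and 31.9 CPM against 28.5 and 29.7 CPM (log2 fold change -0.19, edgeR adjusted p = 0.239).

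Of 26 intracellular and membrane partners of plexins 23 were tested, and 7 rose and 3 fell, with a median of 0.22. DPYSL3, a collapsin response mediator of the cytoskeleton downstream of SEMA3A, had 4.35 and 5.64 CPM in MET+ and 397 and 312 CPM in MET-KO cells. It rose 70.2-fold (log2 fold change 6.13, standard error 0.15, edgeR adjusted p = 8.45e-27). L1CAM, an adhesion molecule that complexes with NRP1, rose 10.1-fold (log2 fold change 3.34, edgeR adjusted p = 2.39e-16), and RND3, a small GTPase of the group that binds plexins, rose 4.43-fold (log2 fold change 2.15, edgeR adjusted p = 1.21e-14). SH3BP1, a Rac inactivator, fell by 0.62 (edgeR adjusted p = 0.000101), RAP1B, a plexin GTPase substrate, by 0.51 (0.000341) and ARHGEF11, an exchange factor bound by B plexins, by 0.39 (0.0378), all on the log2 scale. The other B plexin exchange factor, ARHGEF12, rose by 0.93 (edgeR adjusted p = 4.81e-09) and is named here after its value was seen.

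Of 27 partners of Eph receptors and ephrins 23 were tested, and 5 rose and 9 fell, with a median of -0.07. TIAM1, a Rac exchange factor recruited by EPHA2 and B ephrins, was counted 44 and 48 times in MET+ and 6 and 2 times in MET-KO cells, 13-fold lower (log2 fold change -3.70, standard error 0.53, edgeR adjusted p = 2.65e-07). AFDN, a junctional scaffold that binds Eph receptors, fell by 1.59 (edgeR adjusted p = 4.16e-14) and NGEF, the exchange factor ephexin, by 0.98 (edgeR adjusted p = 0.000794), on the log2 scale. ANKS1A, an adaptor of EPHA receptors, rose by 1.82 (edgeR adjusted p = 6.31e-14), the kinase ABL2 by 1.38 (edgeR adjusted p = 1.87e-10) and NCK2, an adaptor that links Eph receptors and B ephrins to actin, by 1.27 (edgeR adjusted p = 6.66e-11). All of these shares of lists are read against the 54.1% of all tested genes that passed the same test, and 10 of 23 plexin partners and 14 of 23 Eph partners passed it. TIAM1 had fewer than 10 counts in each MET-KO library and could pass the count filter only through MET+ cells.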

How the data were processed

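RNA from 2 MET+ and 2 MET-KO LoVo cultures was sequenced with a QuantSeq 3' FWD kit. The authors deposited 1 file of raw counts per gene and library. The submitters' processing notes name bcl2fastq, cutadapt 1.16, FastQC 0.11.7, MultiQC 1.5, STAR 2.5.4a, featureCounts 1.6.2, DESeq2 1.18.1 and GRCh38. The annotation release, the strand setting and the handling of overlapping genes are not given in the sources used here. Without the strand setting, reads of a gene and of a gene on the opposite strand cannot be told apart: 16 tested members are overlapped by an antisense gene and 13 by a gene on the same strand, and in 3 (EPHA1, PLXNA3 and SEMA4G) another gene's exon lies in the last 500 exonic bases. Names and positions were taken from GENCODE version 29, where 58552 of 58825 gene IDs were found. The 99 spike-in rows held no counts and were left out.

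Counts were fitted in R 4.3.3 with edgeR 4.0.16 (filterByExpr by group, TMM, quasi-likelihood test, Benjamini-Hochberg adjustment over all 13801 tested genes of 23153 with a count, threshold 0.05), with condition as the only term. The sources used here state no model for the expression test. Standard errors are the size of the coefficient divided by the root of F. P-values measure the spread between 2 replicates a group, which differed beyond sampling noise (chi-square per degree of freedom 5.45 and 4.86). An exact permutation test of 2 against 2 cannot go below 0.333 and was not used. Alternatives were DESeq2 1.42.0 (size factors, and its Wald test), library totals alone, no filter on low counts, a minimum of 10 counts per library, a block for the replicate number, a log2 fold change of at least 1, offsets centred on the chromosome median, and each library left out. On simulated counts of this comparison (13580 genes tested), edgeR recovered 94 of 100 genes changed by 1 and 99 of 100 changed by 2 on the log2 scale, and called 13 unchanged genes. The simulation changed only 200 genes, all well above the lowest counts, and gave every gene the same spread between replicates. In the data 54.1% of tested genes were called and some chromosomes shifted as a whole, so these rates need not hold there.

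The members and lists were chosen with earlier results of these data known. Every member is named. Members past the threshold with a log2 fold change of at least 1 in size, and the highest member of each family, are given in full, and from each list at most the 3 genes past the threshold with the largest rises and the 3 with the largest falls, plus MET, MST1R, FURIN, VEGFA and AXIN2. The value of 1 gene that the rule names is not reported here. Promoters come from RefSeq, GRCh38.p14. Python 3.11.15 and matplotlib 3.10.9 made the figures.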

Additional observations from a re-analysis of the deposited data

How the results depend on the processing

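Of the 30 members called, 22 passed the edgeR test with each library left out in turn, and 20 (8 higher, 12 lower) passed in every setting in which they were tested but the fold minimum. Of these 20, 4 (EFNA5, SEMA6A, EFNB3 and EPHA4) were not tested with at least 10 counts in every library, which leaves 16 tested throughout. The Wald test of DESeq2 lost 7 calls, EFNA1, PLXNA2, PLXNB1, EPHB6, SEMA3F, SEMA3G and SEMA6C, and left 9 members higher. With a log2 fold change of at least 1, 8 members were higher and 9 lower, proteases 2 and 0, plexin partners lower 0, Eph partners 3 and 2, netrin and slit genes lower 2, VEGF genes higher 0, and crypt targets 5 and 2. VEGF genes called higher were 0 with DESeq2 and 0 to 1 with a library left out. Netrin and slit genes called higher were 3 with at least 10 counts in every library, where fewer were tested. Sema-domain kinases called lower were 2 with chromosome-centred offsets and 1 to 2 with a library left out. The sign of the log2 fold change turned for EPHB4 (-0.068), SEMA4D (-0.017) and SEMA7A (0.041) with chromosome-centred offsets and for SEMA4C with library totals alone (0.051). With a library left out, PLXNC1 ranged from -1.05 to 1.32, EPHB2 from -0.061 to 0.35, SEMA4C from -0.24 to 0.12 and SEMA4D from -0.13 to 0.20. Apart from EPHB4, none of these was called in any setting, and the cause was not tested. Library totals alone moved the median of all genes to 0.109 and the higher share of calls from 50.3% to 59.2%, and lost no member.

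The labels give replicate numbers and do not say whether equal numbers were handled together. Deviations of equal numbers correlated at -0.139 over 9556 genes, and whether the replicates were paired was not tested. With the replicate block 14 members were higher and 16 lower and no call changed, and a crossed pairing, chosen after seeing the data, also lost none, with 7055 and 7737 of all genes called against 7467. Protein features planned for these families were not run. Depth limits the 13 untested members and those near 1 CPM, where 1 library can set the value.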

Other observations

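Other guidance genes and crypt genes were measured in the same libraries. Of 21 netrin, slit and repulsive guidance genes 13 were tested and 12 passed the edgeR test, against 54.1% of all tested genes. They were 7 higher and 5 lower, against 27.2% and 26.9% of all tested genes, and the median log2 fold change of the 13 was 1.68. SLIT1, SLIT2 and RGMA had fewer than 10 counts in each MET+ library, and SRGAP3 had fewer than 10 in 1 of them. All of these could pass the count filter only through MET-KO cells. These counts and the median therefore depend in part on the filter. With at least 10 counts in every library 9 were tested, 3 higher and 5 lower. SLIT1, a secreted ligand of ROBO receptors, went from 0 and 0 counts to 16 and 34 (edgeR adjusted p = 3.07e-06), SLIT2, its relative, from 6 and 0 to 25 and 26 (edgeR adjusted p = 0.000669), and SRGAP3, a GTPase-activating partner of ROBO, from 15 and 3 to 56 and 72 (edgeR adjusted p = 9.59e-06). RGMB, a ligand of neogenin, fell by 1.65 on the log2 scale (edgeR adjusted p = 3.48e-09), as did ROBO3 by 0.94 (4.11e-05), and the netrin receptor UNC5B went from 617 and 629 counts to 286 and 360 (3.54e-10). The netrin receptor DCC had at most 1 count in any library, and ROBO1 was counted 1 and 0 times in MET+ and 6 and 8 times in MET-KO cells.

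Of 15 TCF target genes of the intestinal crypt 8 rose and 4 fell, read against the 54.1% of all tested genes that passed the same test. APCDD1 and SP5 had a MET+ library with fewer than 10 counts, and RNF43 had such a MET-KO library. Each could pass the count filter only through the group where it was high. With at least 10 counts in every library 12 were tested, 6 higher and 3 lower. AXIN2, a feedback inhibitor of Wnt signalling, had 23.1 and 21.9 CPM in MET+ and 87.1 and 92.3 CPM in MET-KO cells (log2 fold change 2.0, standard error 0.12, edgeR adjusted p = 3.31e-16), and the Wnt inhibitor APCDD1 and the transcription factor SP5 rose 37.3-fold and 9.71-fold (edgeR adjusted p = 3.78e-17 and 1.15e-09). RNF43, a ligase that removes Wnt receptors, went from 1099 and 1249 counts to 2 and 10 (edgeR adjusted p = 1.41e-25) and the stem cell receptor LGR5 from 566 and 602 counts to 56 and 61 (edgeR adjusted p = 6.76e-20), while TCF7 fell by 0.92 on the log2 scale (edgeR adjusted p = 0.000151). The list did not move one way.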
